A study of Mus musculus with 10 samples.

Results

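Chromatin loops that were called in macrophages (MFs) after IFNG, with or without an earlier exposure to IL-4, and in none of the 3 groups that received no IFNG, are described here. Each loop is a pair of 10 kb bins on 1 chromosome, its anchors, that Hi-C found in contact often enough to be called. The loops were chosen from the calls themselves: autosomal loops of the IFNG list with a loop of the preIL4IFNG list at most 2 bins (20 kb) off at both anchors, and with no such loop in the CTR, IL4 or preIL4 list. This gave 813 of the 54869 autosomal loops of the IFNG list, or 1.48%. Because the rule used the calls, the number of these loops and their presence or absence by list are descriptions and carry no test.

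Hi-C ligates DNA ends that are near each other inside fixed nuclei and counts the joined pairs by sequencing. It was applied to bone marrow-derived MFs (BMDMs) of wild-type female C57BL/6 mice aged 2 to 3 months, grown in M-CSF at 20 ng/ml, with treatments on day 6. The 10 samples formed 5 groups with 2 replicates each. CTR cells had no cytokine besides M-CSF, IL4 cells had IL-4 (20 ng/ml) for 24 h, and preIL4 cells had the same followed by washing and 24 h of rest. IFNG cells had IFNG (20 ng/ml) for 3 h, and preIL4IFNG cells had IL-4, washing, rest and then IFNG at that dose and time. All groups carried the same genotype and M-CSF. The time that CTR and IFNG cells spent in culture beside the longer primed protocol was not given in the sources used here, so priming and time in culture cannot be told apart. As each group had a single loop list, no replicate check of any difference between groups was possible, and intervals cover counting error only. The autosomal lists held 53273 loops in CTR, 58117 in IL4, 67532 in preIL4, 54869 in IFNG and 66827 in preIL4IFNG, with a median of 32 contacts per loop in each. The contacts at called loops summed to between 2170953 and 2781666 per list, which leaves out all contacts outside loops and so gives no library depth. A loop absent from a list was not called there, and its contacts in that list are unknown. Expression was not analysed here, so neither the cell type nor the response to IFNG was checked against marker genes.

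IFNG binds a receptor that activates the kinases JAK1 and JAK2. Their signal acts at gamma-activated sites (GAS) in DNA and switches on a first set of genes, among them the factor IRF1, which binds interferon-stimulated response elements (ISRE) in further genes. In MFs the targets include guanylate-binding proteins (GBPs) and immunity-related GTPases, which act on vacuoles that hold microbes, chemokines that draw in other leukocytes, antigen presentation genes and antiviral genes. Several of these genes lie side by side in clusters, so that 1 loop can be near many of them.

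The promoters shown here belong to the 3 listed genes whose transcription start site (TSS) lay in an anchor bin of more than 1 of the 813 loops. All of them encode GBPs and lie in 1 cluster on chromosome 3. The stretches end before the first base of the gene in both RefSeq and GENCODE, on the plus strand of GRCm38, at chr3:142594697-142594815 for Gbp2b, chr3:142559924-142560015 for Gbp3 and chr3:142530216-142530335 for Gbp7. Capitals mark matches to TTCCNGGAA (GAS-type), to the looser TTCNNNGAA, which contains the first motif and was added after the sequences were seen, and to 2 copies of GAAA with 2 bases between them (ISRE-type), each read on both strands.
Gbp2b: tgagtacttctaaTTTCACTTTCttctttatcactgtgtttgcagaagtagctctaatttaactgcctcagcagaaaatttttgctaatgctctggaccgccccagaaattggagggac
Gbp3: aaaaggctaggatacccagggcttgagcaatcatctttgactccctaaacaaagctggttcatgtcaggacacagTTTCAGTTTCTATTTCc
Gbp7: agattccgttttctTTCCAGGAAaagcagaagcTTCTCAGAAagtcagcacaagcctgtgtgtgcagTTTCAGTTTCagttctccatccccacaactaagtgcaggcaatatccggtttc

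The stretches began 120 bases before the RefSeq start for Gbp3 and Gbp7, and 150 bases before it for Gbp2b. The last 120 bases of Gbp2b held no match, so only the longer stretch includes one. With these lengths each of the 3 stretches held an ISRE-type match, counted in bases from the RefSeq start back to the first letter of the match. It lay at -137 in Gbp2b and at -53 in Gbp7, and Gbp3 held overlapping matches at -45 and -39. Gbp7 also held a GAS-type match at -106 and a match to the looser motif at -87. A further RefSeq start of Gbp3, also in an anchor bin, had no match to any of these motifs in the 250 bases upstream. Over the 250 bases upstream of all 32851 RefSeq promoters, 0.913% held TTCCNGGAA, 7.02% TTCNNNGAA and 2.98% the ISRE-type motif. Of the 373 promoters whose start lay in an anchor bin of the 813 loops, 9 (2.41%), 32 (8.58%) and 23 (6.17%) held them, respectively. A match describes the letters and not a bound site, and neighbouring genes and alternative starts of 1 gene share anchors and are not independent.

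The 813 loops were modest in contacts and long in span. They held between 6 and 224 contacts in the IFNG list, with a median of 25 (quartiles 15 to 43), where all IFNG loops had a median of 32. Their median span was 230 kb, against 180 kb for all IFNG loops and 160 kb for the 43928 IFNG loops matched in every list. Spans of 500 kb or more made up 192 of them (23.6%, 95% Wilson interval 20.8 to 26.7, against 12.1% of all IFNG loops). At the same time 90 (11.1%, 9.09 to 13.4) joined adjacent bins, against 4.51% of the list, so both ends of the span range were more common than in the list as a whole. Contacts fall with span, so strength was taken as the contacts over the median contacts of loops of the same span in the same list. Median strength was 0.909, against 1.00 for all IFNG loops, 1.03 for loops matched in every list and 0.875 for the 2266 IFNG loops matched in no other list. Of the 813, 705 exceeded the 5th percentile of contacts at their span in each of the CTR, IL4 and preIL4 lists, and 247 exceeded the median there. A further 50 lay below that 5th percentile in all 3 lists.

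A match in the primed cells was part of the rule, so only how close it lay and its contacts are described. The preIL4IFNG list held 217 of them (26.7%) in exactly the same bins, 319 with the nearest loop 1 bin off and 277 with it 2 bins off, where 52.7% of all IFNG loops were in the same bins. At the 217, the only members whose contacts can be set side by side in the same bins, the log2 ratio of preIL4IFNG to IFNG contacts had a median of -0.04 (quartiles -0.14 to 0.07) and ran from -0.49 to 0.62. Contacts were higher in the IFNG list at 122 of them, higher in preIL4IFNG at 69 and equal at 26. The sums were 13631 contacts in IFNG and 13214 in preIL4IFNG, a ratio of 0.969. The 28915 loops that both lists held in the same bins had a median log2 ratio of -0.03, so the 217 differed little from the rest in this respect. For 2 of the 217 the 95% binomial interval of the IFNG share excluded the share of the sums. With 1 list per group, this compares libraries and not conditions.

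**Figure D1:**
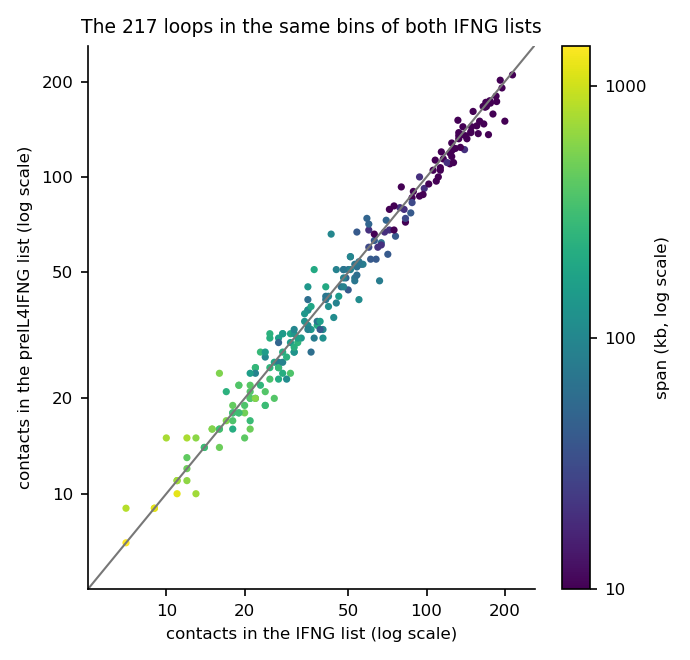
Contacts of the 217 loops called in the same bins of both IFNG lists, in the IFNG list (x, log scale) and the preIL4IFNG list (y, log scale). Each point is 1 loop, coloured by span in kb, and the grey line marks equal contacts. The points follow the line over the whole range, with short loops at the upper right and long loops at the lower left, and the sums were 13631 and 13214 contacts.

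The limits of the rule ran through a continuous range. Just inside, 277 loops had their nearest preIL4IFNG loop 2 bins off, with a median of 19 contacts and a strength of 0.875. Just outside, 360 loops without a match in CTR, IL4 and preIL4 had it 3 bins off, with a median of 20 contacts and a strength of 0.890. On the other side of the rule, 350 of the 813 had a loop of CTR, IL4 or preIL4 3 bins off, and 1554 were left out because such a loop lay exactly 2 bins off. Both groups had a median of 24 contacts, with strengths of 0.913 and 0.912. The nearest loop of those 3 lists was 4 bins off for 168, 5 bins off for 58, 6 to 10 bins off for 156 and more than 10 bins off for 81.

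Loops called in only 1 pair of lists were counted in the same way for all 10 pairs. As a mean share of both lists, the pair IFNG and preIL4IFNG ranked 2nd, with 813 loops (1.48% of IFNG) and, starting from the other list, 888 loops (1.33% of preIL4IFNG). The pair preIL4 and preIL4IFNG, which share IL-4 exposure and rest, ranked 1st with 1000 loops (1.48% of preIL4) and 940 (1.41% of preIL4IFNG). IL4 and preIL4 had 866 (1.49%) and 837 (1.24%). The lowest shares were those of CTR and IFNG, with 317 loops (0.595% of CTR) and 354 (0.645% of IFNG). The 2 longest lists, preIL4 and preIL4IFNG, formed the first pair, and list length was not separated from treatment here.

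**Figure D2:**
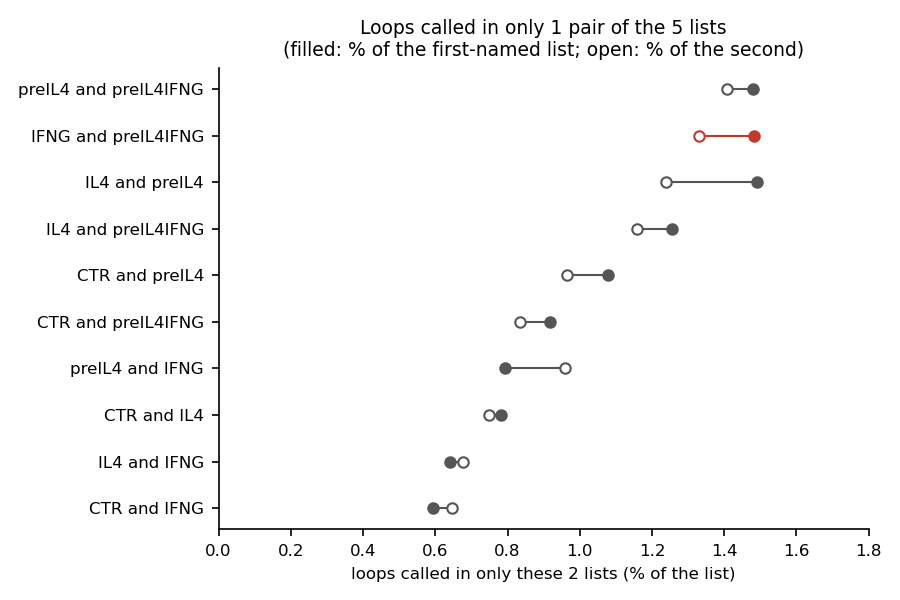
Share of each list (x, %) made up of loops called in that list and 1 other list and in none of the remaining 3, for all 10 pairs of lists (y). Filled circles give the share of the list named first, open circles that of the list named second, and red marks IFNG with preIL4IFNG, at 1.48% and 1.33%. This pair lies near the top but is not above preIL4 with preIL4IFNG, at 1.48% and 1.41%.

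Most of the 813 loops had at least 1 anchor bin that was already a loop anchor in untreated cells, and a minority had both. Both anchor bins were also anchors of other CTR loops in 216 (26.6%, 95% Wilson interval 23.6 to 29.7), 1 of them in 361 (44.4%, 41.02 to 47.8) and neither in 236 (29.0%, 26.01 to 32.2). Over all IFNG loops these shares were 77.3%, 17.8% and 4.85%, where many loops had a CTR match, and among IFNG loops matched in no list they were 19.1%, 38.1% and 42.9%. The rule bars a CTR loop between the same bins but not the use of each bin with other partners, so the second comparison is the closer one. Protein-coding TSSs lay in an anchor of 176 of the 813 (21.6%, 18.95 to 24.6) and in both anchors of 23 (2.83%), against 29.2% and 4.53% of all IFNG loops and 19.5% and 3.27% of those matched in no list. The 1502 anchor bins had a median GC content of 44.2%, against 45.3% for all anchor bins of the IFNG list and 41.4% for all autosomal bins. A GAS-type match was found in 25.03% of them (25.3% of all IFNG anchor bins), an ISRE-type match in 75.9% (74.3%) and a match to a CTCF consensus of 14 bases with at most 1 mismatch in 2.13% (2.39%). At the scale of 10 kb bins, these shares lay within 2 percentage points of those of the whole list. Over all autosomal bins the shares were 23.1%, 81.1% and 1.08%. For the GAS-type motif the 1502 bins were thus within that margin of the genome as well. CTCF matches were rare, so that margin says little about them. They were more common than over all autosomal bins, at 2.13% against 1.08%, as they were over all IFNG anchor bins (2.39%).

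**Figure D3:**
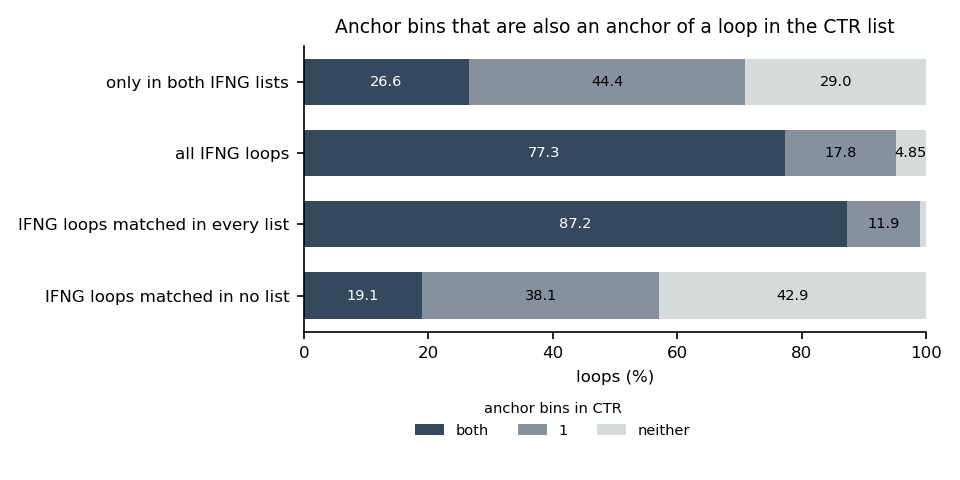
Share of loops (x, %) for which both anchor bins, 1 of them or neither was also an anchor of any loop in the CTR list, for the 813 loops only in both IFNG lists and for 3 comparison sets of the IFNG list (y). The 813 loops (26.6%, 44.4% and 29.0%) lie between the loops matched in every list and those matched in no list.

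The loops were next placed beside genes of 6 lists of the IFNG response, which include receptor and signalling genes as well as targets. Of these 115 genes by role, 112 matched autosomal protein-coding genes of GENCODE M21. IL-4-induced and housekeeping genes served for comparison, and Pdcd1lg2 and B2m stood on both sides. The lists were chosen with earlier results of these data known, so the shares below are descriptions. Of the 112, 50 (44.6%) had an anchor of the 813 loops within 100 kb of the TSS, against 13.0% of all 20807 protein-coding genes. The TSS itself lay in an anchor bin for 13 of the 112 (11.6%), against 1.01% of all genes. By loops, 60 of the 813 (7.38%, 95% Wilson interval 5.78 to 9.38) had an anchor within 100 kb of a listed gene, against 4.05% of all IFNG loops and 2.69% (2.10 to 3.44) of those matched in no list. These 60 loops formed 41 loci on 13 chromosomes, and 13 of them lay in the Gbp cluster on chromosome 3. Listed genes lie in loop-rich regions, since IFNG loops matched in every list were within 100 kb of 85.7% of them and of 64.1% of all genes. Neighbouring genes also shared loops, so that the 50 genes are not 50 separate cases. Without the GTPase list, a check added after the counts were seen, 38 of 95 genes (40%) had an anchor within 100 kb.

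Loops only in other pairs of lists gave a measure of the same kind. Loops only in IFNG and CTR lay within 100 kb of 12 of the 112 genes (10.7%, against 6.51% of all genes), and loops only in IL4 and preIL4 near 20 (17.9%, against 14.1%). Loops only in preIL4 and preIL4IFNG, the larger set, lay near 13 (11.6%, against 16.3%). The remaining pairs examined were IL4 with preIL4IFNG, at 18 genes (16.1%, against 12.4%), and CTR with preIL4, at 10 (8.93%, against 10.5%). By loops, 1.40% to 2.82% of these 5 sets had an anchor within 100 kb of a listed gene. Of these 6 pair sets only the 813 loops lay near more than 20 of the genes. The pairs CTR with IL4, CTR with preIL4IFNG, IL4 with IFNG and preIL4 with IFNG were not examined in this way. The 2266 IFNG loops matched in no list, a set outside the pairs and larger, lay within 100 kb of 59 of the 112 (52.7%, against 30.9% of all genes) and within 25 kb of 36 (32.1%, against 12%), where the 813 loops lay within 25 kb of 24 (21.4%, against 5.23%). At the TSS the 2266 counted 7 (6.25%, against 2.75%). IFNG loops outside the 813 thus also lay near listed genes more often than near all genes.

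Among the interferon-inducible GTPases, 12 of 17 genes had an anchor within 100 kb, and 5 had the TSS in an anchor bin. Of the chemokines, 7 of 11 had an anchor within 100 kb and 3 at the TSS, and of the antiviral genes 12 of 26 and 4. Receptor and JAK-STAT genes counted 7 of 16 and 1, antigen presentation and co-stimulation genes 9 of 24 and 0. Macrophage effector genes, such as Nos2, which makes nitric oxide, counted 3 of 18 and 0. The last list thus stood at 16.7%, near the 13.0% of all genes, as did the IL-4-induced genes, with 5 of 29 (17.2%) and 0 at the TSS. Housekeeping genes counted 7 of 28 (25%) and 0.

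**Figure D4:**
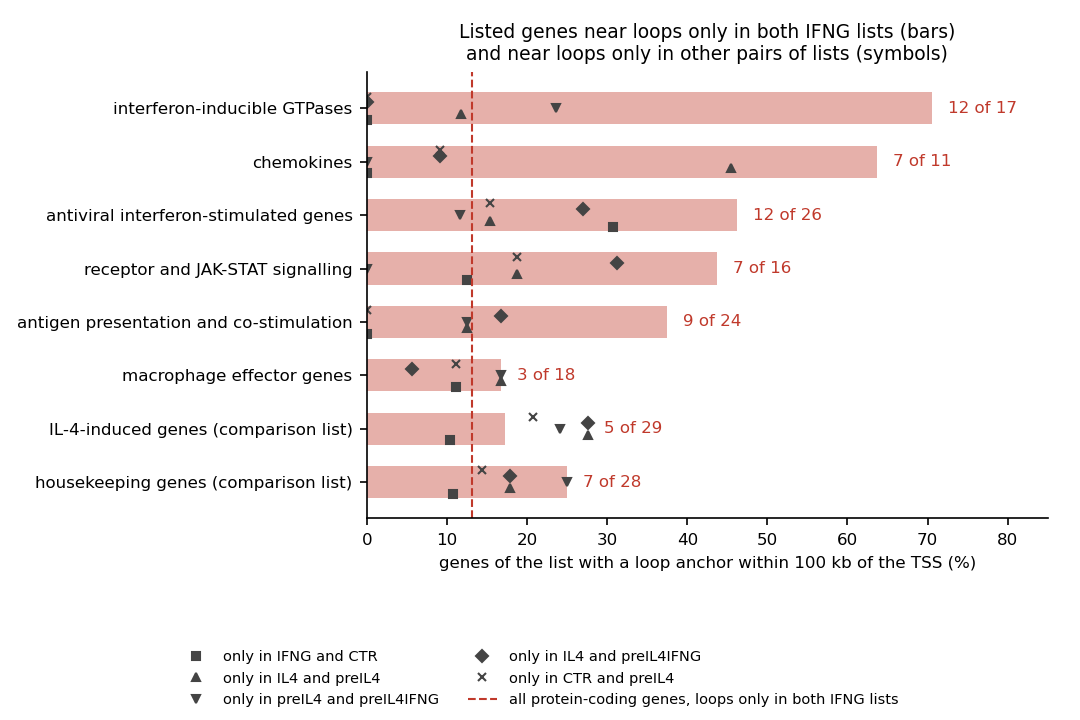
Share of the genes of each list (x, %) with a loop anchor within 100 kb of the TSS, for the 813 loops only in both IFNG lists (red bars, with the number of genes) and for loops only in 5 other pairs of lists (symbols). The dashed line marks the 13.0% of all protein-coding genes near the 813 loops. The bars of the GTPases (12 of 17), chemokines (7 of 11), antiviral, receptor and antigen presentation genes lie beyond all 5 symbols of their rows, and those of the effector, IL-4-induced and housekeeping genes do not.

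The GTPases of the Gbp cluster held the largest locus. Members with both anchors at most 20 kb from another member were joined, which gave 689 loci, of which 602 held a single loop, 65 held 2 and 22 held 3 or more. The largest, with 8 loops, was chr3:142560001-142630000 in GRCm38, over Gbp3, Gbp2b and Gbp2. In this window the lists held 0 loops in CTR, IL4 and preIL4, 8 in IFNG and 11 in preIL4IFNG. The 7th locus, chr3:142520001-142560000 over Gbp5 and Gbp7, held 4 members, with 0, 0, 0, 4 and 3 loops in the same order of lists. GBPs assemble on vacuoles and membranes of intracellular microbes, and Gbp2b is also known as Gbp1.

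The strongest loop of the first locus joined the adjacent bins chr3:142590001-142600000, which holds the Gbp2b TSS (ENSMUSG00000040264.10, plus strand, 142594847 to 142619179), and chr3:142600001-142610000, inside the gene. It had 125 contacts in IFNG (95% Poisson interval 104.05 to 148.9) and 128 (106.8 to 152.2) in preIL4IFNG. In the CTR list, loops of this span had a median of 142 contacts and a 5th percentile of 93.5, so a pair with as many contacts would have been among the counts that CTR loops of this span had. Loops with an anchor in the bin of the Gbp2b TSS numbered 0 in CTR, IL4 and preIL4, 4 in IFNG and 2 in preIL4IFNG. All 4 of the IFNG loops there were among the 813.

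Other loops of the locus ran between genes. One joined the Gbp3 TSS bin (ENSMUSG00000028268.14) with the Gbp2 TSS bin (ENSMUSG00000028270.12) over 60 kb, with 36 contacts in IFNG (25.2 to 49.8) and 28 in the same bins in preIL4IFNG. Another joined the Gbp3 TSS bin with a bin in the Gbp2b gene over 50 kb, with 27 contacts in IFNG and 30 in preIL4IFNG. In the bins of their starts, Gbp3 had 1, 0, 0, 4 and 8 loops in CTR, IL4, preIL4, IFNG and preIL4IFNG, and Gbp2 had 3, 3, 2, 6 and 7. Gbp7 (ENSMUSG00000040253.15) had 0, 0, 1, 3 and 6, with 88 contacts in IFNG and 86 in preIL4IFNG between its TSS bin and the next. Both IFNG lists held more loops than the other 3 at each of these 4 starts, a difference that the rule in part fixed. Members made up 4 of the 4 IFNG loops at the Gbp2b start, 2 of 4 at Gbp3, 2 of 3 at Gbp7 and 1 of 6 at Gbp2.

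Over the wider cluster, chr3:142450001-142760000, the lists held 11 loops with 342 contacts in CTR, 8 with 244 in IL4, 10 with 313 in preIL4, 39 with 1670 in IFNG and 57 with 2237 in preIL4IFNG. The shortest loop spanned 70 kb in CTR, 100 kb in IL4, 80 kb in preIL4 and 10 kb in both IFNG lists. Loops of 60 kb or less numbered 15 in IFNG and 23 in preIL4IFNG, and 0 in the other 3 lists. This limit equals the span of the longest member here and lies just below that of the shortest CTR loop. All members here are this short and by the rule had no call nearby without IFNG, so this split was in part fixed. Of the 39 IFNG loops, 13 were among the 813 and the other 26 had a match in CTR, IL4 or preIL4 within 20 kb. All 12 members of the 2 Gbp loci had a strength below 1, and 6 of them had fewer contacts than the 5th percentile at their span in each of the CTR, IL4 and preIL4 lists. Calls with so few contacts were uncommon at that span in those lists, and the background that the caller compared them with is not given in the sources used here. GBP genes of a cluster are similar in sequence, and the part of reads shared between copies was not tested.

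**Figure D5:**
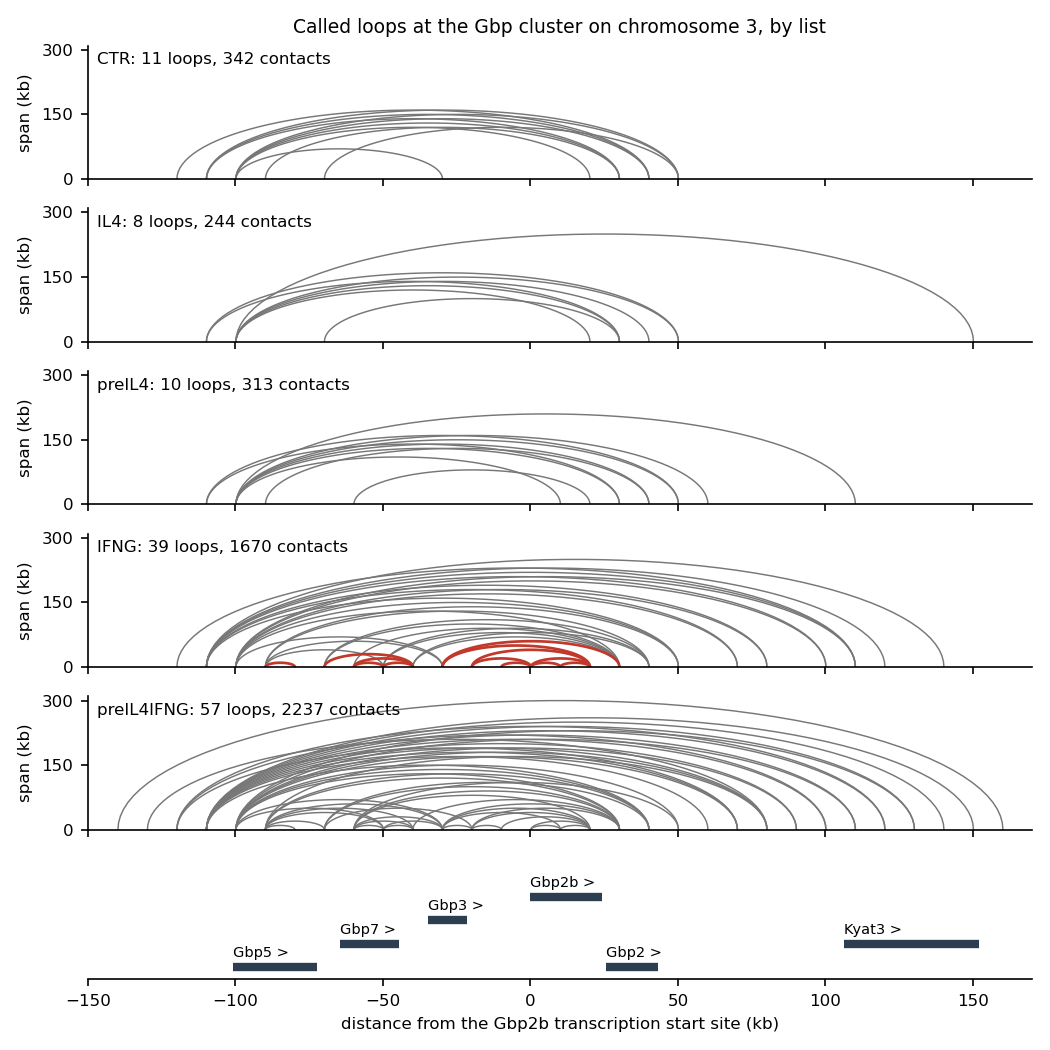
Called loops at the Gbp cluster in each of the 5 lists, drawn as arcs between bin centres whose height is the span in kb (y), by distance from the Gbp2b TSS in kb (x), with gene positions below (arrowheads give the strand). Red arcs in the IFNG panel are loops only in both IFNG lists. The CTR, IL4 and preIL4 panels hold 8 to 11 loops of 70 kb or more, and both IFNG panels hold short loops inside the cluster as well, with 39 and 57 loops in all.

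The 4th locus, chr11:48870001-48930000, held 5 members and another GTPase of this response, Irgm1 (ENSMUSG00000046879.7), an immunity-related GTPase that acts in autophagy and in control of other GTPases. The window also holds Gm5431 and Gm12185, which are annotated as protein-coding and carry no gene name. Its strongest member joined the Irgm1 TSS bin with a bin in Gm12185 over 50 kb, with 59 contacts in IFNG (44.9 to 76.1) and 74 (58.1 to 92.9) in preIL4IFNG. Loops inside the window numbered 0, 0, 0, 5 and 4 in CTR, IL4, preIL4, IFNG and preIL4IFNG. Loops with an anchor in the Irgm1 TSS bin were present in every list, at 8, 6, 6, 9 and 10, so not all loops of the gene were absent without IFNG. Loops with at least 1 anchor in the window numbered 17, 14, 16, 20 and 21. Within 100 kb of the Irgm1 start the lists held 50, 44, 49, 41 and 49 loops, so there was no rise with IFNG at that distance.

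Chemokine genes on chromosome 11 gave 2 members. One joined the bins of the Ccl7 and Ccl12 starts over 60 kb, with 67 contacts in IFNG (51.9 to 85.1). Its strongest preIL4IFNG match lay up to 2 bins off, with 46 contacts. This match joined chr11:82030001-82040000 with chr11:82080001-82090000, which hold neither the Ccl7 nor the Ccl12 start. The bin pair of these 2 starts was thus not itself called in preIL4IFNG. The other joined a bin outside protein-coding genes with the Ccl8 TSS bin over 130 kb, with 40 contacts in IFNG (28.6 to 54.5). Its strongest preIL4IFNG match had 54 (40.6 to 70.5) over a shorter span. That match joined chr11:82000001-82010000 with chr11:82100001-82110000, the bin of the Ccl12 start, so the 2 counts are not of the same bins. CCL7, CCL8 and CCL12 attract monocytes. In the bins of their starts the lists held 0, 0, 0, 2 and 2 loops at Ccl12, 0, 0, 0, 1 and 2 at Ccl8 and 3, 3, 4, 5 and 5 at Ccl7, in the order used above.

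Antiviral genes gave 3 members. For each of them the nearest loop of CTR, IL4 or preIL4 lay 3 bins off, just outside the rule. The Samhd1 TSS bin, of a gene whose product degrades nucleotides needed for reverse transcription, was joined over 70 kb with the Rbl1 TSS bin, with 53 contacts in IFNG (39.7 to 69.3) and 47 in preIL4IFNG in the same bins. Loops at the Samhd1 start numbered 0, 0, 0, 1 and 2. Dtx3l and Parp9, which encode partners in ADP-ribosylation and are read in opposite directions, shared a TSS bin that was joined with the adjacent one, with 151 contacts in IFNG (127.9 to 177) and 161 in preIL4IFNG. Their bin held 2, 2, 4, 4 and 5 loops, so only this adjacent pair was absent without IFNG. At Ifit2, which encodes a protein that binds viral RNA, a loop of 20 kb inside the gene had 69 contacts in IFNG and 67 in preIL4IFNG. The bin of its start held loops in every list, at 1, 1, 1, 3 and 2.

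In the signalling list, the Socs3 start, as GENCODE places it, lay in a bin joined with the adjacent Pgs1 TSS bin, with 111 contacts in IFNG (91.3 to 133.7) and 100 in preIL4IFNG. Loops of CTR, IL4 and preIL4 each lay 3 bins off, just outside the rule. SOCS3 is a feedback inhibitor of cytokine receptors. RefSeq places a Socs3 start in the neighbouring bin, so this assignment depends on the annotation, and the lists held 3, 1, 3, 2 and 3 loops at the start.

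Together the 13 listed genes with a start in an anchor bin occupied 12 bins and took part in 15 of the 813 loops. Of these 15, 11 were in the same bins in preIL4IFNG, 5 joined adjacent bins and 5 had a strength of 1 or more. All loops at those 12 bins numbered 21 in CTR, 16 in IL4, 21 in preIL4, 41 in IFNG and 51 in preIL4IFNG. As shares of the lists these were 0.0394%, 0.0275%, 0.0311%, 0.0747% and 0.0763%, a difference that the choice of the bins by the rule in part fixed. Over the start bins of all 112 listed genes, these 12 bins included, the shares differed less. They were 0.336%, 0.323%, 0.318%, 0.390% and 0.385% in the same order.

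Not all large loci held a listed gene. The 2nd locus, chr5:100590001-100670000, held 6 members beside and in Coq2, which encodes an enzyme of coenzyme Q synthesis, with 0, 0, 0, 8 and 6 loops in CTR, IL4, preIL4, IFNG and preIL4IFNG. Its member with the most contacts joined adjacent bins from chr5:100620001-100630000, with 173 contacts in IFNG (148.2 to 200.8) and 136 in the same bins in preIL4IFNG. Its strength in IFNG was 1.18, and that of the member with 166 contacts was 1.13. The 3rd, chr4:124750001-124800000, lay within Inpp5b, which encodes an inositol phosphatase, and held 5 members, with 0, 0, 0, 5 and 5 loops. Its strongest member spanned 30 kb, with 88 contacts in IFNG and 83 in the same bins in preIL4IFNG. Neither window holds a protein-coding TSS. The windows were built from the members, so the 0 loops inside them without IFNG are in part fixed by the rule, as at the Gbp genes. Loops with at least 1 anchor in the window were found in every list at the 2nd locus, at 13, 11, 14, 32 and 31, and at the 3rd numbered 2, 3, 0, 7 and 9, against 5, 4, 4, 15 and 22 at the first.

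At the remaining loci the windows were longer. The 5th, chr13:9870001-10540000, had 4 loops of 620 to 660 kb from Chrm3, a muscarinic acetylcholine receptor gene, with 13 to 17 contacts each. With the members included, loops were called within that window in every list, at 11, 6, 9, 27 and 21. The 6th, chr15:11570001-11920000, had 4 loops to the region of the Npr3 start, a natriuretic peptide receptor gene, with 15 to 18 contacts each and 1, 0, 0, 4 and 4 loops in the window. The 8th, chr2:156780001-157040000, had 3 loops between Myl9 and Soga1 with 29 to 37 contacts, and 0, 6, 6, 7 and 13 loops in the window.

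The 10 loops with the highest strength, counted as the lower of the IFNG and preIL4IFNG values, held no listed gene at an anchor TSS. The first joined adjacent bins within Ppargc1b, the gene of a transcriptional coactivator, with 214 contacts in IFNG (186.3 to 244.7) and 210 (182.6 to 240.4) in preIL4IFNG. Its strength was 1.46 in both lists, and the nearest loop of CTR, IL4 or preIL4 was 5 bins off. Others were a loop of 590 kb to the Ptpru TSS bin with 22 and 20 contacts, a loop of 200 kb to Amz1 with 41 and 45, and a loop of 1160 kb from the Mdfic TSS bin to Tfec with 13 and, at the match, 12 contacts. The 5 that remain besides Serpina3f lay in or beside Kbtbd4, Wwox, Mgat4a and, with 2 loops, Nup210l. Of the 10, 6 were in the same bins in both lists. The nearest loop of CTR, IL4 or preIL4 lay 3 bins off, just outside the rule, at Amz1, Mgat4a and 1 of the Nup210l loops. It lay 4 bins off at Kbtbd4, 5 at the other Nup210l loop, 8 at Ptpru and 9 at Wwox, and more than 10 at Serpina3f and Mdfic.

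Serpina3f had the most of the 813 loops at its start among the genes of these 10, 3 against 2 at Ptpru. Counting all loops, Ptpru had more, at 5, 2, 4, 4 and 3 in CTR, IL4, preIL4, IFNG and preIL4IFNG. Serpina3f encodes a serine protease inhibitor of a mouse gene cluster, and its TSS bin, chr12:104210001-104220000, was an anchor of 3 of the 813 loops and of 0 loops in CTR, IL4 and preIL4, 3 in IFNG and 4 in preIL4IFNG. The 3 loops spanned 140 to 200 kb on both sides of the gene. Their contacts in the same bins were 46 in IFNG and 42 in preIL4IFNG for the loop of 150 kb, 35 and 45 for that of 140 kb, and 38 and 34 for that of 200 kb. Serpina3f and Gbp2b were the only genes of the 210 with a TSS in an anchor bin that had 3 or more of the loops there, and 196 of the 210 had 1.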

How the data were processed

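Hi-C had been run on 10 samples in 5 groups, assigned from the sample titles, and 1 deposited loop list per group was used. Each list gave pairs of 10 kb bins and a whole-number count of contacts, as the authors deposited it, with no apparent normalization and no false discovery rate. Replicates appeared to be merged. The authors' methods describe HiC-Pro processing and HICCUPS loops on balanced maps at a coarser resolution, and the submitters' processing notes name Bowtie2, HiC-Pro, Juicer and HOMER and the build mm10, so the caller behind these lists is not given in the sources used here. No loop ran past a chromosome end of GRCm38. Columns of other samples numbered 0.

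The 813 loops and the gene lists were chosen with earlier results of these data known. Loops were matched when both anchors were at most 2 bins off, on 19 autosomes. The matching was tested on simulated lists, where it found 200 of 200 planted loops and 0 others. The simulated loops lay further apart than the tolerance, and the planted ones were shifted by less than it. This checks the code only and not the accuracy in lists as dense as the real ones. Strength used spans of at least 50 loops, pooling neighbouring spans where there were fewer. Loops named were the 10 with the highest lower strength of both IFNG lists and the strongest member of the 8 largest loci. Genes named were listed genes, genes of those loci and genes of those 10 loops with a TSS in an anchor bin, and other names only place an anchor. No test was run. Shares carry 95% Wilson and single counts 95% Poisson intervals, which cover counting error only. The loops at 1 listed gene are not reported here. Computations ran in Python 3.11.15 with numpy 2.4.6 and pandas 2.3.3, intervals came from scipy 1.17.1, and plots were drawn with matplotlib 3.10.9. Alternatives tried were other tolerances, the other starting list, the X chromosome, a minimum count, equal list lengths, no adjacent bins, merged bin pairs and other distances to the TSS.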

Additional observations from a re-analysis of the deposited data

How the results depend on the processing

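No paired analysis was possible because the files hold 1 list per group and no values by replicate, and no replicate could be left out. Over 9 results, 28 of 59 alternatives left a count within 1.5 times its value, or a share or median within its 95% interval, and 31 did not. Depth limits what absence means, since a loop below the caller's threshold is absent whatever its contacts. The tolerance moved the number most, as fewer or more matches are allowed by construction: 3217 loops (5.86% of the IFNG list) in the same bins, 1372 (2.50%) within 1 bin, 613 (1.12%) within 3, 391 (0.713%) within 5, and 237 (0.432%) when absence was required within 5 bins. The share was 1.33% from the preIL4IFNG list, 1.33% with at least 20 contacts, 1.36% at equal list lengths and 4.54% with touching bin pairs merged.

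In the same bins, the medians were 30 contacts, 180 kb and a strength of 0.955, with 27.5% at a TSS, 62.7% with both anchors in CTR, and 83 of 112 listed genes near (74.1%, all genes 39.9%). Within 3 bins the median was 23 contacts. With absence within 5 bins the span was 160 kb, the share in CTR anchors 23.6% and the genes near 25 (22.3%, all genes 3.7%). With at least 20 contacts the medians were 33.5 contacts, 130 kb and 0.932, and without adjacent bins 23 contacts and 260 kb. The genes near were 13 with the TSS inside an anchor (all genes 1.01%) and 24 within 25 kb (21.4%, all genes 5.23%). In each of these settings the share of listed genes exceeded that of all genes. The looser GAS-type motif was in 8.58% of promoters, against 2.41%.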

Other observations

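The reverse set, loops of the CTR list matched in IL4 and preIL4 and in neither IFNG list, was counted after the other results were known. It held 544 loops, or 1.02% of the CTR list, with a median of 28 contacts, a span of 180 kb and a strength of 0.938. An anchor lay within 100 kb of 21 of the 112 listed genes of the IFNG response (18.8%), against 9.29% of all protein-coding genes. Of the 112 none had its TSS in an anchor bin, against 0.798% of all genes.

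Besides Gbp2b and Serpina3f, 12 genes had a TSS in an anchor bin of 2 of the 813 loops, and those outside the lists are named here after their values were seen. Fgl2, which encodes a fibrinogen-like protein, had 0 loops at its start in CTR, IL4 and preIL4 and 2 in each IFNG list. Its members had 102 contacts in IFNG between adjacent bins and 71 over 40 kb, the latter with 57 in the same bins in preIL4IFNG. Ncmap had 0, 0, 0, 2 and 1 loops at its start in the same order of lists, and Npr3 0, 0, 0, 2 and 3. At the others, at least 1 of the 3 lists without IFNG held loops. Nme8 had 6, 7, 11, 13 and 15, and the neighbouring Hoxa10 and Hoxa11, which share a bin, 2, 3, 6, 4 and 5. Gm5431 had 3, 3, 2, 3 and 3, and Gp6 had 0, 0, 1, 3 and 2. Ptpru had 5, 2, 4, 4 and 3, and Rbm28 had 1, 0, 2, 3 and 3.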
